A study of Mus musculus with 6 samples.

Results

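Meiotic prophase genes are described here in sorted spermatogonia of young mice of the genotypes Dnmt3A WT/WT and KO/KO. The list names 37 genes of known role in meiotic entry, sister chromatid cohesion, the chromosome axis and synaptonemal complex, and recombination. The list was chosen with earlier results of these data known. Rows of the deposited count tables were matched to it by symbol, without use of measured values. Of the 37 genes 34 matched directly and 1 by an older symbol (Terb1, listed as Ccdc79), so 35 of 54087 gene rows were studied. Majin and Terb2, which encode partners of Terb1 at telomeres, matched no row and were not analysed here. All 35 matched genes passed the filter on low counts.

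The study profiled RNA of Id4-GFP bright and medium germ cells, a fraction that its labels mark as approximately spermatogonial stem cells, from male C57BL/6 mice at 10 dpp (days post partum). ID4 is a transcriptional regulator whose reporter is brightest in the stem cell end of the undifferentiated spermatogonia. One group was Dnmt3A WT/WT (3 samples) and the other Dnmt3A KO/KO (3 samples), and both carried the Id4-GFP reporter. DNMT3A is a DNA methyltransferase that places new cytosine methylation. The labels say neither whether the samples came from separate animals nor whether the deletion is limited to a cell type, so the p-values speak only to the spread among these samples.

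In meiotic prophase, homologous chromosomes pair, are joined lengthwise by the synaptonemal complex and exchange DNA at programmed breaks. Each chromosome is organised as loops on a protein axis built on cohesin rings with meiosis-specific subunits. The machinery belongs to spermatocytes, but many of its genes are already transcribed at lower levels in spermatogonia, and several of their promoters are rich in CpG.

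Each library held between 49694994 and 72742392 counts, of which between 42681201 and 61749155 were in gene rows. Dnmt3a read at 215, 193 and 188 CPM in the WT/WT libraries and, lower in all 3, at 90.2, 104 and 99.6 CPM in the KO/KO libraries, where CPM is a gene's count scaled to a common library size over the tested genes, with TMM factors. It fell by 1.02 on the log2 scale (SE 0.09, adjusted p = 0.000222 by edgeR with Benjamini-Hochberg adjustment), and RNA remained in all 3 KO/KO libraries. Counts cannot tell whether the remaining RNA is intact. KO/KO replicate 1 lay nearest to the WT/WT libraries for several differentiation genes, among them Kit, which encodes the receptor tyrosine kinase of differentiating spermatogonia and read at 118, 98.9 and 149.9 CPM in WT/WT, against 38.6, 5.64 and 8.44 CPM in KO/KO.

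Of the 35 meiotic prophase genes 9 rose and 1 fell in KO/KO at an adjusted p under 0.05 by the edgeR quasi-likelihood test, with p-values adjusted by Benjamini-Hochberg over all 21314 genes tested. The genes that rose were Mybl1, Meioc, Ccnb3, Smc1b, Sycp2, Syce3, Tex12, Prdm9 and Rnf212, and Sycp3 fell. In all that follows, values of 3 libraries are in the order of replicates 1 to 3, with WT/WT before KO/KO. As shares these were 25.7% and 2.86% of the members, where 8.33% of all genes tested rose and 6.42% fell. Because the members were chosen with earlier results of these data known, these shares are not independent of the data. In 15 of the 35 members every KO/KO library lay above every WT/WT library, and in 3 every KO/KO library lay below. Over all genes tested the same was true of 18.2% above and 17.5% below. The median log2 fold change was 0.26 over the members and 0.00 over all genes tested. A positive value was found in 25 members (71.4%) and a negative one in 10, where 50.4% of all genes tested had a positive value. With library sizes alone and no scaling factors, 11.1% of all genes rose and 4.58% fell, and 11 members rose and 1 fell, the added genes being Stag3 and Tex11. Leaving out WT/WT replicate 1, 2 or 3 left 6, 4 or 5 members higher, and without WT/WT replicate 2 or 3 no member was lower, although 12 and 13 members then had an unadjusted p under 0.05. Because the calls over all genes also shrank in these fits (to 4.85%, 3.68% and 3.99% higher), the members' counts are to be read against those shares.

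**Figure D1:**
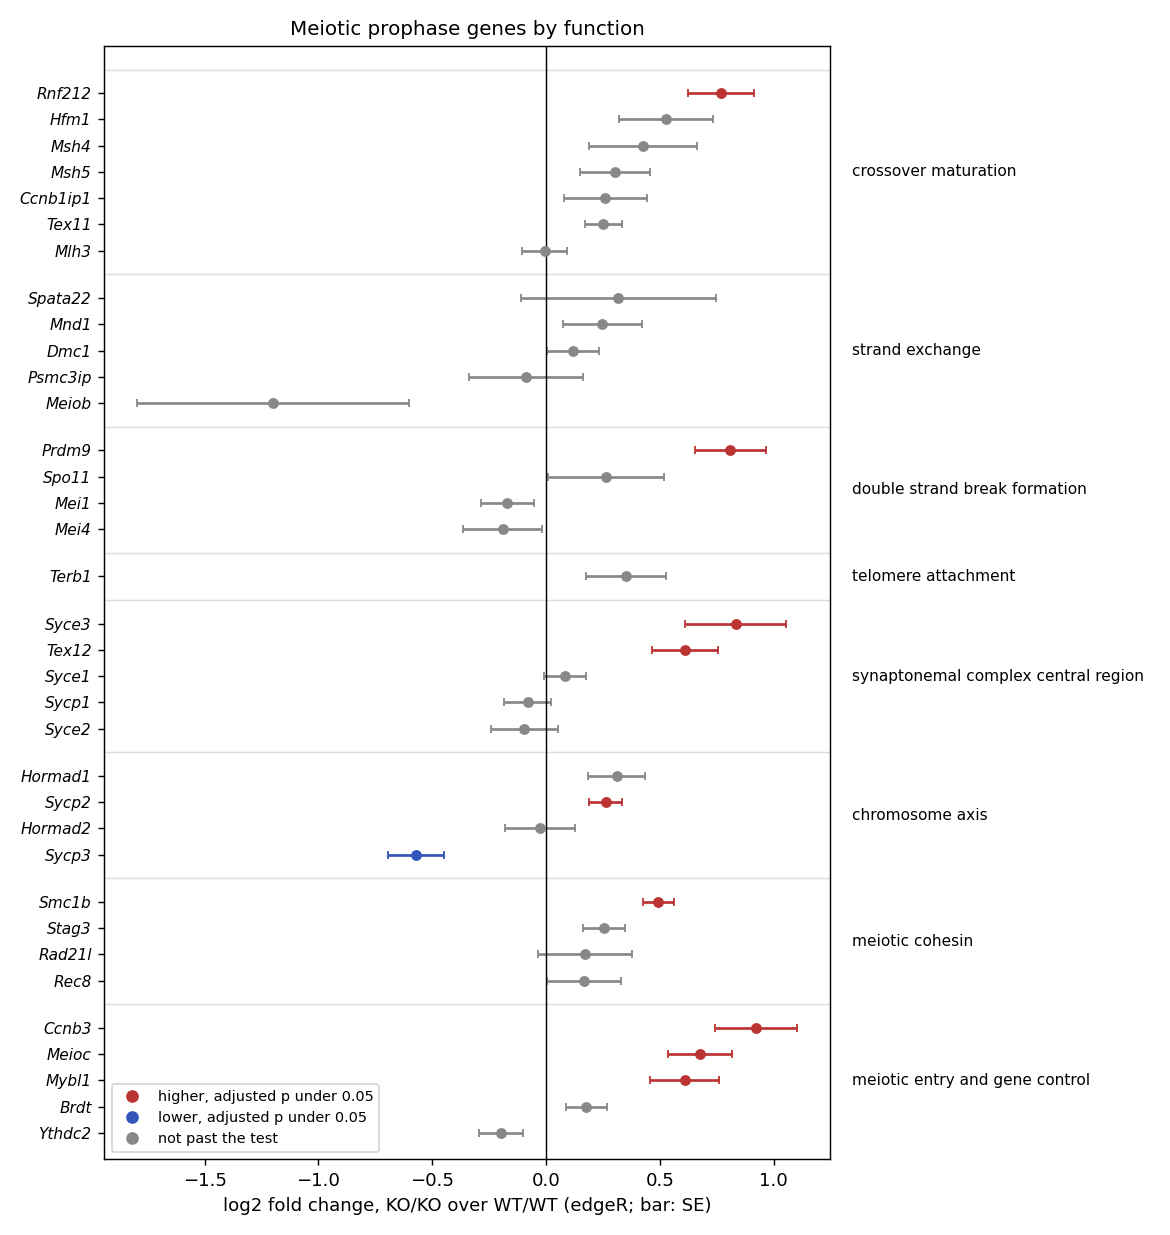
Log2 fold change of each of the 35 meiotic prophase genes, KO/KO over WT/WT, with its SE as the bar, grouped by function. Red marks the 9 genes that rose, blue Sycp3, the 1 gene that fell, and grey the genes that did not pass the test, whose estimates run from -1.20 (Meiob) to 0.53 (Hfm1).

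The members' promoters were read from the RefSeq table of mouse build GRCm38.p6, which holds 300 bases around a gene's start (250 before and 50 after). Of the members 30 had a window there. Mybl1, Ythdc2, Spo11, Meiob and Tex11 had none. The window richest in CpG of each of the 30 genes held a median of 18 CpG dinucleotides (quartiles 15 and 24.8), against a median of 7 over all 32851 windows (quartiles 3 and 20). Such CpG are the sites at which DNA methyltransferases act, but methylation was not measured here. The letters TCCCGC, the core of sites bound by E2F factors such as E2F6, a repressor of germline genes, were searched on both strands and occurred in 19 of the 30 genes (63.3%). Over all 27025 genes with a window 22.0% held them, and of the 5835 windows with between 15 and 25 CpG 37.3% did. The palindrome CACGTG, the E-box read by MAX dimers, occurred in 8 members (26.7%) against 8.09% of all genes and 10.8% of windows of that CpG range. The element CNCCTCAG, reported as bound by STRA8, occurred on one strand or the other in 7 members (23.3%) against 9.12% and 9.37%. Members were counted by gene, but the windows with between 15 and 25 CpG were counted singly. The members' richest windows held between 2 and 41 CpG, so that range is no exact match for them. TCCCGC was in 5 of the 8 genes that rose and have a window, in Sycp3, and in 13 of the 21 genes that did not pass the test. The richest windows had a median of 20 CpG in the genes that rose, 18 in those that did not pass the test and 15 in Sycp3.

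Stretches before the start of 5 genes that rose and of Sycp3 are printed because they show TCCCGC, with or without CACGTG, in place. Ccnb3, Sycp2 and Syce3, which also rose, have none of the 3 elements in their windows. All are from GRCm38.p6, 5′ to 3′ on the gene's own strand, and capitals mark TCCCGC or its reverse complement GCGGGA, and CACGTG. They lie on chr11:102665335-102665584 (plus strand) for Meioc, chr15:85131965-85132077 (minus strand) for Smc1b, chr9:50561326-50561518 (minus strand) for Tex12, chr17:15564355-15564604 (minus strand) for Prdm9, chr5:108775028-108775277 (minus strand) for Rnf212 and chr10:88459337-88459568 (plus strand) for Sycp3. No exon of GENCODE M21 overlaps them. The stretch of Meioc lies in an intron of its own longer transcript, that of Tex12 in an intron of Il18 and that of Sycp3 in an intron of Chpt1, both on the other strand.
Meioc: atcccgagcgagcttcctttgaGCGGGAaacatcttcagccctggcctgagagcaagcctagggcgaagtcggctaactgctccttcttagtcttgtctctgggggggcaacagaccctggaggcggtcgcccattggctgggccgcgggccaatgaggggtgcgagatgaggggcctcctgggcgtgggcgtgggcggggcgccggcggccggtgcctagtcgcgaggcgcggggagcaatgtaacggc
Smc1b: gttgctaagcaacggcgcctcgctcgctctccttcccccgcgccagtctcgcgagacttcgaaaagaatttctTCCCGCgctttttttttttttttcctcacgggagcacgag
Tex12: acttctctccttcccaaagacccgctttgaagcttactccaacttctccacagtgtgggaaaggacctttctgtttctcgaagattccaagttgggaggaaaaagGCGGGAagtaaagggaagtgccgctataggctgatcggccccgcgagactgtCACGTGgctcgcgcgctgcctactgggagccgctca
Prdm9: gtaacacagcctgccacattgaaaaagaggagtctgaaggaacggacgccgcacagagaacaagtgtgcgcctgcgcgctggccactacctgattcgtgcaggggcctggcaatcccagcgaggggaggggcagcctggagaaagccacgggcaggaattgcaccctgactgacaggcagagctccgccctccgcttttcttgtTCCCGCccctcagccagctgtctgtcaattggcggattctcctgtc
Rnf212: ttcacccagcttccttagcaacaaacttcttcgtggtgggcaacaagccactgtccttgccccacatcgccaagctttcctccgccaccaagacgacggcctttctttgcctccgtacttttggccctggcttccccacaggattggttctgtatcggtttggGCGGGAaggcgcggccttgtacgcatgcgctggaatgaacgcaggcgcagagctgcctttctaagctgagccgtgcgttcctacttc
Sycp3: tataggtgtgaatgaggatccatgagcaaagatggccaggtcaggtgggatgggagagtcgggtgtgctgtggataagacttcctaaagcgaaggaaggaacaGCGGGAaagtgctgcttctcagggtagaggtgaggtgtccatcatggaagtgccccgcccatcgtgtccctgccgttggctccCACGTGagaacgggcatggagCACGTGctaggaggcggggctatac
Meioc, Smc1b, Prdm9 and Rnf212 show 1 TCCCGC core and no CACGTG in the printed stretch. Tex12, which rose, and Sycp3, which fell, each show both elements in the printed stretch, Sycp3 with 2 copies of CACGTG. The full window of Rnf212, which rose, also holds 1 CACGTG, which the printed stretch does not show. In Prdm9 the TCCCGC core shares 1 base with a CNCCTCAG match. A match describes the letters only, since no factor was measured on these promoters.

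Of the 5 genes of meiotic entry and gene control 3 rose and none of them fell, with Mybl1, Meioc and Ccnb3 past the test. Among all genes tested 8.33% rose, 6.42% fell and 50.4% had a positive value. The counts by function, here and below, come from few genes and are to be read against these shares. Mybl1 (chr1:9667415-9700209, minus strand, mm10) encodes A-MYB, the transcription factor that switches on spermatocyte genes. It read at 10.5, 8.002 and 9.25 CPM in WT/WT, against 12.99, 13.6 and 15.7 CPM in KO/KO, so that every KO/KO library lay above the WT/WT libraries, with the highest value in KO/KO replicate 3. Its log2 fold change was 0.61 (SE 0.15, edgeR adjusted p = 0.0258). Without WT/WT replicate 2, WT/WT replicate 3 or KO/KO replicate 3 its call was lost, with adjusted p-values up to 0.133.

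Meioc (chr11:102663716-102682237, plus strand) encodes a partner of the RNA helicase YTHDC2 that lets germ cells leave the mitotic programme. Its levels were 17.5, 19.2 and 15.8 CPM in WT/WT, against 31.3, 23.3 and 29.5 CPM in KO/KO, a log2 fold change of 0.68 (SE 0.14, edgeR adjusted p = 0.0113), with KO/KO replicate 2 nearest to the WT/WT libraries. Ythdc2 itself read at 42.8, 42.4 and 39.96 CPM and 38.2, 37.9 and 33.1 CPM. All KO/KO libraries were below all WT/WT libraries, but the log2 fold change of -0.20 (SE 0.10) did not pass the edgeR test (adjusted p = 0.216). The values of the 2 partners thus lay on opposite sides of 0.

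Ccnb3 (chrX:6979652-7041619, minus strand) encodes cyclin B3, a cyclin of meiotic cells, and had the highest log2 fold change of the 35 genes. It read at 17.3, 13.4 and 12.98 CPM in WT/WT, against 33.1, 21.1 and 28.7 CPM in KO/KO, with no overlap, and rose by a log2 fold change of 0.92 (SE 0.18, edgeR adjusted p = 0.00905). Leaving out WT/WT replicate 2 gave an edgeR adjusted p of 0.0555 for Ccnb3, and leaving out WT/WT replicate 3 gave 0.0594 for Meioc, and these were the fits in which the calls were lost. Brdt, which encodes a testis bromodomain protein that binds acetylated histones, read at 39.2, 38.8 and 36.6 CPM and 44.1, 44.2 and 41.2 CPM. Its groups did not overlap, yet the log2 fold change of 0.18 (SE 0.09) missed the threshold (adjusted p = 0.226).

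Among the 4 meiotic cohesin genes, whose products hold sister chromatids on the axis, 1 rose and all had positive values, where 8.33% and 50.4% of all genes tested did. Smc1b (chr15:85064689-85131964, minus strand), the meiotic counterpart of the ring subunit SMC1A, read at 216, 218 and 217 CPM in WT/WT, against 301, 298 and 317 CPM in KO/KO. The WT/WT libraries lay within 2 CPM of each other and all KO/KO libraries lay far above them. Its log2 fold change was 0.49 (SE 0.07), with the smallest adjusted p of the members (edgeR, 0.00177), and it stayed past the threshold in all 15 alternative fits, as only Prdm9 and Rnf212 also did among the called members.

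Stag3, the meiotic member of the STAG subunits, read at 297, 299.6 and 319 CPM and 402, 321 and 369.9 CPM. KO/KO replicate 2 stood close to the WT/WT libraries while the other two lay well above, and the log2 fold change of 0.26 (SE 0.09) missed the threshold (edgeR adjusted p = 0.0917). It passed without KO/KO replicate 2 (adjusted p = 0.0159), with no filter on low counts (adjusted p = 0.0460) and with no scaling factors (adjusted p = 0.0278). The kleisins close the cohesin ring, and their genes overlapped between genotypes. Rec8 read at 15.9, 14.1 and 12.04 CPM and 18.9, 13.7 and 14.7 CPM. Rad21l read at 13.2, 12.3 and 11.8 CPM and 11.8, 19.2 and 10.9 CPM, with KO/KO replicate 2 alone above the rest. Summed over the 4 genes, cohesin RNA was between 542 and 560 CPM in WT/WT and between 652 and 734 CPM in KO/KO, a sum carried by Smc1b and Stag3 and given without a test.

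The axis genes did not move together: of 4, Sycp2 rose and Sycp3 fell, although their products assemble on the same chromosome axis. Sycp2 (chr2:178345293-178407685, minus strand) read at 123, 124 and 122 CPM in WT/WT, against 149.5, 154 and 139 CPM in KO/KO. The groups were apart and the WT/WT libraries differed by under 3 CPM, but the change was small, with a log2 fold change of 0.26 (SE 0.07, edgeR adjusted p = 0.0416). It was the least firm call, lost in 9 of 15 alternative fits, with adjusted p-values up to 0.156; among them were upper quartile factors (adjusted p = 0.0754), no filter on low counts (adjusted p = 0.0690) and DESeq2 (adjusted p = 0.0832), and the fits without any 1 of the WT/WT libraries, KO/KO replicate 1 or KO/KO replicate 2.

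Sycp3 (chr10:88459569-88473236, plus strand), the classical marker of the axis in spermatocyte spreads, read at 39.9, 43.2 and 41.3 CPM in WT/WT, against 32.6, 26.6 and 24.6 CPM in KO/KO. Every KO/KO library was below every WT/WT library, replicate 1 the least so. It fell by 0.57 on the log2 scale (SE 0.12, edgeR adjusted p = 0.0131). Omitting WT/WT replicate 2 (adjusted p = 0.0726) or WT/WT replicate 3 (adjusted p = 0.0521) put it short of the threshold. In the GENCODE M21 annotation 52.2% of its exonic sequence is covered by exons of Chpt1, transcribed from the other strand. Since no source used here states whether counting took strand into account, reads of the pair may not have been told apart. Chpt1, which encodes an enzyme of phosphatidylcholine synthesis, read at 27.6, 25.2 and 26.2 CPM in WT/WT, against 18.9, 17.4 and 14.3 CPM in KO/KO and fell by 0.65 (SE 0.13, edgeR adjusted p = 0.00995).

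Hormad1 and Hormad2 encode HORMA domain proteins that mark unsynapsed axes. Hormad1 read at 21.6, 22.6 and 24.02 CPM and 32.7, 25.6 and 26.2 CPM, without overlap, but its log2 fold change of 0.31 (SE 0.12) missed the threshold (edgeR adjusted p = 0.128). Hormad2 read at 8.86, 11.5 and 11.6 CPM and 10.9, 10.9 and 9.65 CPM, with the groups overlapping throughout.

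Of the 5 genes of the synaptonemal complex central region 2 rose, Syce3 and Tex12. Syce3 (chr15:89390174-89410503, minus strand) encodes a small central element protein. It read at 5.23, 5.11 and 6.06 CPM in WT/WT, against 6.998, 9.35 and 12.8 CPM in KO/KO. KO/KO replicate 1 lay just above the WT/WT libraries and replicate 3 far above, and the log2 fold change was 0.83 (SE 0.22, edgeR adjusted p = 0.0342). Without any 1 of the WT/WT libraries or without KO/KO replicate 3 its call was lost, with adjusted p-values up to 0.136.

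Tex12 (chr9:50556819-50561325, minus strand), whose product forms fibres with SYCE2, read at 8.11, 8.02 and 9.62 CPM and 13.3, 11.9 and 14.03 CPM. The KO/KO libraries were close to each other and all above WT/WT, with a log2 fold change of 0.61 (SE 0.14, edgeR adjusted p = 0.0209). It missed the threshold once WT/WT replicate 1 (adjusted p = 0.0885) or WT/WT replicate 2 (adjusted p = 0.113) was left out. Syce2, the partner of Tex12, read at 36.7, 47.1 and 46.95 CPM and 45.1, 32.9 and 44.4 CPM, with a log2 fold change of -0.10 (SE 0.15, edgeR adjusted p = 0.715) and with KO/KO replicate 2 the lowest of all 6 libraries.

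Sycp1 encodes the transverse filament that bridges the axes. It read at 242, 262 and 263 CPM in WT/WT, against 282, 214 and 231 CPM in KO/KO, where KO/KO replicate 1 was the highest and replicates 2 and 3 were the lowest of the 6 libraries. The log2 fold change was -0.08 (SE 0.10, edgeR adjusted p = 0.657). Syce1, another central element gene, read at 67.5, 77.03 and 77.3 CPM and 73.4, 77.1 and 84.4 CPM, with overlap. Per kb of exon, the 2 genes that rose had the lowest levels of this group in WT/WT.

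Terb1, which tethers telomeres to the nuclear envelope for chromosome movement, read at 4.71, 5.20 and 4.37 CPM in WT/WT, against 6.91, 5.58 and 5.76 CPM in KO/KO. The groups did not overlap, and the log2 fold change of 0.35 (SE 0.18) did not pass the edgeR test (adjusted p = 0.216).

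Of the 4 genes of break formation only Prdm9 rose. Prdm9 (chr17:15543079-15564354, minus strand) encodes the histone methyltransferase that sets the places of meiotic recombination. It read at 4.75, 5.67 and 5.27 CPM in WT/WT, against 9.55, 9.49 and 8.504 CPM in KO/KO. The groups were well apart with little spread in either, and the log2 fold change was 0.81 (SE 0.16, edgeR adjusted p = 0.00869).

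Spo11, which encodes the enzyme that cuts DNA, read at 6.28, 5.88 and 4.07 CPM and 4.90, 8.78 and 5.83 CPM, with overlap and with KO/KO replicate 2 the highest; its log2 fold change was 0.26 (SE 0.25, edgeR adjusted p = 0.537). Mei1 and Mei4, which encode proteins needed for SPO11 to act, had log2 fold changes of -0.17 (SE 0.12) and -0.19 (SE 0.17), neither past the test. Mei1 read at 16.9, 17.02 and 16.95 CPM in WT/WT, against 15.9, 13.8 and 15.5 CPM in KO/KO, below WT/WT in every KO/KO library. Prdm9 thus moved without a called change in the genes of the cutting machinery on the list.

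None of the 5 strand exchange genes passed the edgeR test, and none had an unadjusted p under 0.05 (0 of 5 also by DESeq2 and by limma-voom). Their products, which include the meiotic recombinase DMC1 and its accessory pair PSMC3IP and MND1, carry broken ends into the homologous chromosome. Dmc1 read at 23.2, 28.5 and 28.1 CPM in WT/WT, against 30.5, 27.5 and 28.7 CPM in KO/KO, a log2 fold change of 0.12 (SE 0.12). Mnd1 read at 11.1, 12.2 and 12.02 CPM and 11.7, 12.4 and 17.7 CPM, with KO/KO replicate 3 alone above the rest.

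Psmc3ip read at 17.95, 21.3 and 25.05 CPM and 24.9, 11.8 and 23.8 CPM, and KO/KO replicate 2 was the lowest of the 6 libraries. Exons of Mlx on the other strand cover 21.2% of its exonic sequence. Meiob and Spata22, whose products bind each other and single-stranded DNA, were close to the detection limit. Meiob had 10, 51 and 34 counts in WT/WT and 18, 17 and 12 in KO/KO. Spata22 had 39, 38 and 31 counts in WT/WT and 52, 71 and 30 in KO/KO, and 80.5% of its exon bases are shared with the predicted gene Gm49340 on the same strand. At these depths the SE of the log2 fold change was 0.60 for Meiob and 0.43 for Spata22, so that only large differences could have been seen.

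Of the 7 genes of crossover maturation 1 rose, Rnf212, and 6 had positive values. As shares these were 14.3% and 85.7%, where 8.33% of all genes tested rose and 50.4% had positive values. Rnf212 (chr5:108729290-108774982, minus strand) encodes a RING finger protein that stabilises recombination intermediates at future crossovers. It read at 9, 8.79 and 7.24 CPM in WT/WT, against 13.2, 14.3 and 15.2 CPM in KO/KO. All KO/KO libraries were above all WT/WT libraries, and the log2 fold change was 0.77 (SE 0.15, edgeR adjusted p = 0.00759). Ccnb1ip1, which encodes HEI10, the RING finger protein that acts with RNF212, read at 5.32, 6.01 and 6.26 CPM and 8.12, 5.72 and 7.25 CPM with overlap, and its log2 fold change of 0.26 (SE 0.18) did not pass the test.

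The X-linked gene Tex11, a component of the crossover machinery, read at 103, 111 and 118 CPM in WT/WT, against 136, 125 and 133 CPM in KO/KO. Its groups did not overlap, but the log2 fold change of 0.25 (SE 0.08) stayed short of the threshold (edgeR adjusted p = 0.0667). It passed with no scaling factors (adjusted p = 0.0201), with a filter of 1 CPM in 3 libraries (adjusted p = 0.0486) and without KO/KO replicate 2 (adjusted p = 0.0473). Hfm1, a DNA helicase gene, read at 27.7, 29.5 and 24.6 CPM and 35.2, 54.1 and 28.5 CPM, and Msh4, which encodes 1 subunit of the MSH4-MSH5 clamp, at 11.5, 10.1 and 8.54 CPM and 10.1, 19.1 and 11.3 CPM. In both genes KO/KO replicate 2 was the highest of the 6 libraries, and for Hfm1 KO/KO replicate 1 also lay above every WT/WT library. Hfm1 had a log2 fold change of 0.53 (SE 0.21, edgeR adjusted p = 0.119), and it passed with no filter on low counts (adjusted p = 0.00129), by DESeq2 (adjusted p = 0.0469) and without KO/KO replicate 3 (adjusted p = 0.0278).

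Msh5 read at 9.80, 9 and 7.63 CPM and 10.1, 10.6 and 11.9 CPM, with every KO/KO library above WT/WT and no call (log2 fold change 0.30, SE 0.15, edgeR adjusted p = 0.221). Mlh3, whose product takes part in crossover resolution, read at 35.5, 35.6 and 31.8 CPM and 33.2, 36.3 and 33.02 CPM, a log2 fold change of -0.01 (SE 0.10). The group as a whole summed to between 202 and 209.6 CPM in WT/WT and to between 240.3 and 265 CPM in KO/KO. Tex11, which did not pass the test, had the largest part of this sum, which is given without a test. For the axis the sums overlapped, with 193 to 201 CPM in WT/WT and 199 to 226 CPM in KO/KO. So did those of the central region (360 to 403 and 346 to 420) and break formation (36.4 to 36.7 and 36.3 to 40.6). Strand exchange overlapped too (53.3 to 66.8 and 53.5 to 70.9), while entry and gene control did not (115 to 127 and 140 to 160).

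**Figure D2:**
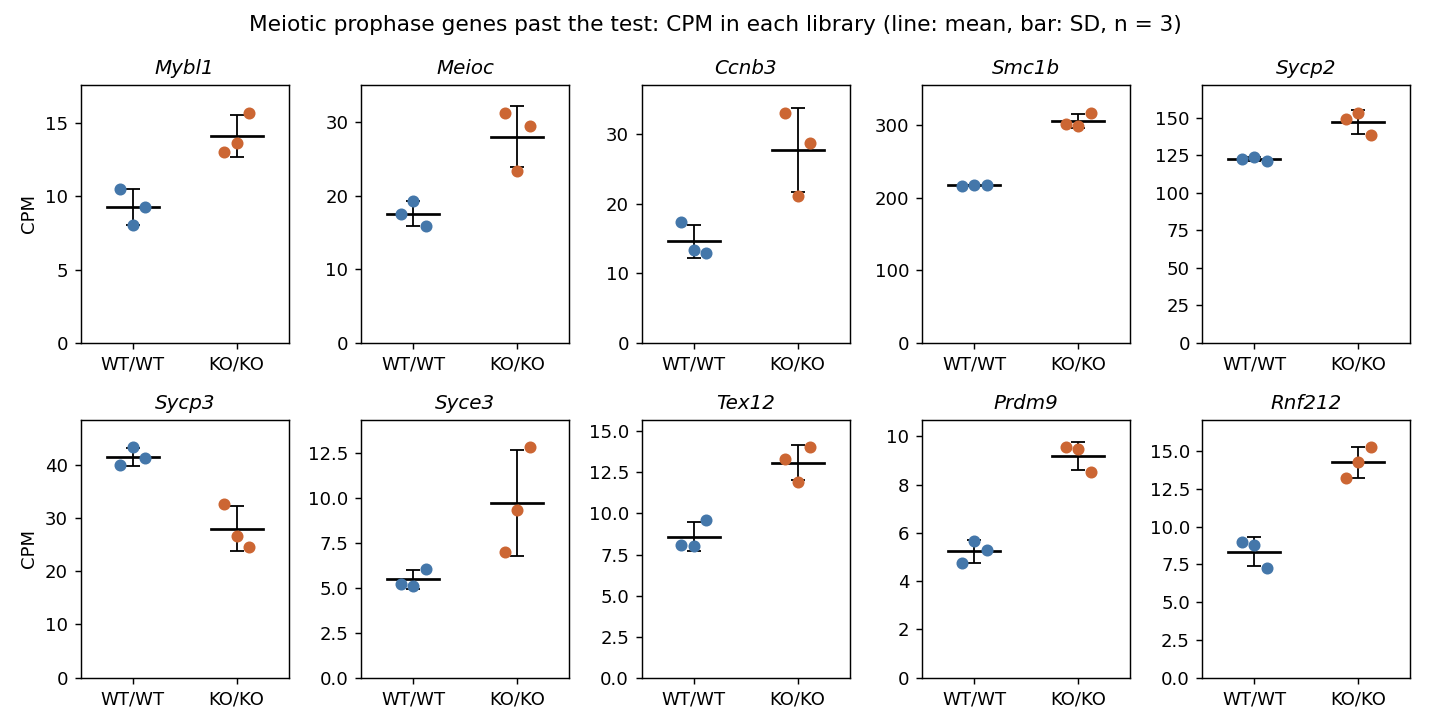
CPM of the 10 meiotic prophase genes past the test in each of the 3 WT/WT and 3 KO/KO libraries, with the mean as a line and the SD as a bar, on axes that start at 0. Sycp3 is lower and the other 9 are higher in KO/KO. The genes were chosen by the test on these same libraries, so the lack of overlap between genotypes in all 10 is no separate result. Over all genes tested, every KO/KO library lay above every WT/WT library in 18.2% and below in 17.5%.

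Set library by library against the WT/WT mean, 25 of the 35 genes lay above and 10 below in each of the 3 KO/KO libraries, with median log2 ratios of 0.22, 0.18 and 0.17. The individual genes varied more than these medians. Although the counts were equal, the genes were not the same in each library. Ythdc2, Sycp3, Mei1, Mei4 and Meiob lay below in all 3, while Syce1 was below only in replicate 1 and Rec8 only in replicate 2. No such count was made over all genes tested. KO/KO replicate 2 was the highest of the 3 for Hfm1 (log2 ratio 0.99, against 0.37 and 0.06 in replicates 1 and 3) and alone lay above every WT/WT library for Spo11 (0.70), Rad21l (0.63) and Msh4 (0.93), and alone low for Psmc3ip (-0.86) and Syce2 (-0.41). In KO/KO replicates 1 and 3 Psmc3ip read at 0.22 and 0.15. Summed over all 35 genes, the members came to between 1519 and 1588 CPM in WT/WT and between 1719.5 and 1901 CPM in KO/KO, and without Stag3, Smc1b and Sycp1, the 3 with the most CPM, to between 764 and 802 CPM and between 881 and 916 CPM. These sums carry no test.

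**Figure D3:**
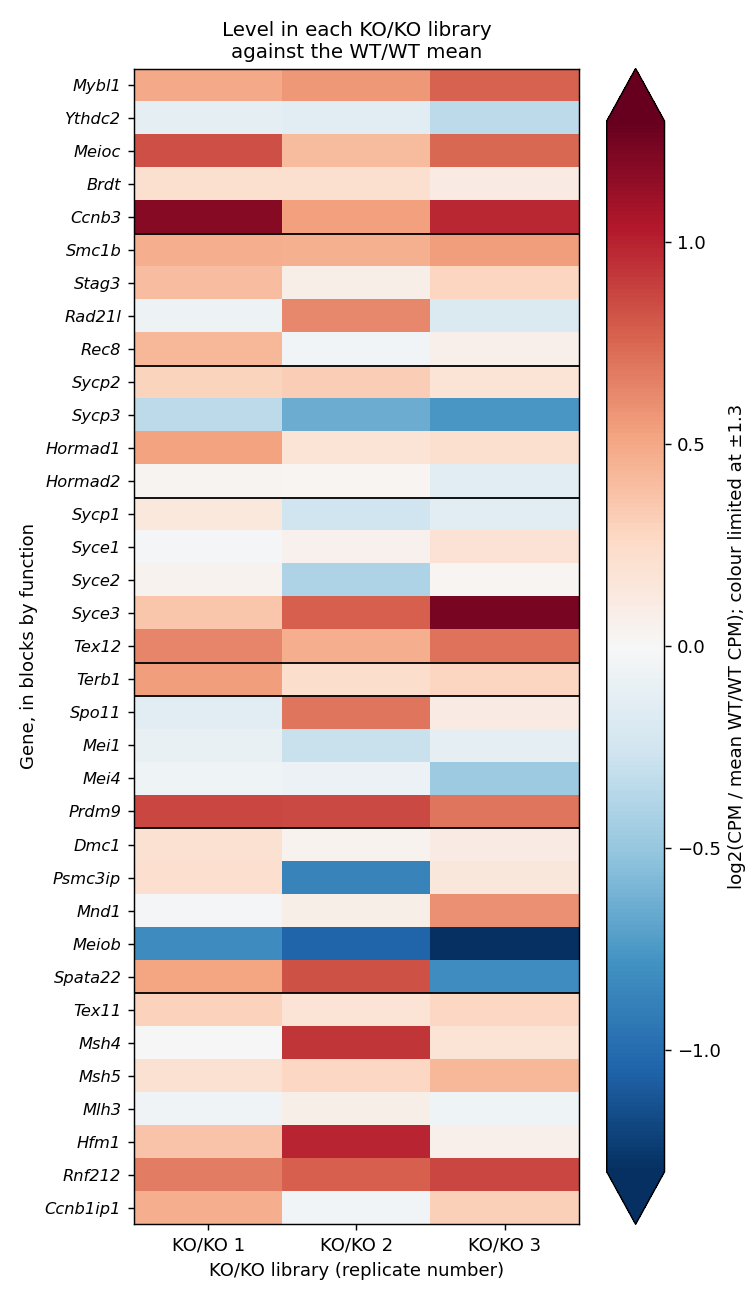
Log2 ratio of CPM in each KO/KO library to the mean of the 3 WT/WT libraries for the 35 genes, in blocks by function, red above and blue below, with the colour scale limited at both ends. Prdm9 and Rnf212 are red in all 3 libraries, while Msh4, Hfm1, Spo11 and Rad21l are reddest in replicate 2.

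Levels between genes were compared as CPM per kb of exon in GENCODE M21. Exons of other genes overlap those of Sycp3, Psmc3ip and Spata22, among others, so their levels may depend on how shared reads were counted. In WT/WT the highest level was that of Sycp1 with 72.0 ± 3.33 CPM per kb (SD, n = 3), and Smc1b with 53.6 ± 0.204, Stag3 with 53.3 ± 2.12 and Syce1 with 50.6 ± 3.83 followed, these 3 not differing beyond their spread. Next came Sycp3 with 32.8 ± 1.33 and Tex11 with 30.5 ± 1.97 CPM per kb, again within their spread, and then Syce2 with 22.1 ± 3.03 and Sycp2 with 20.6 ± 0.196. At the low end stood Prdm9 with 1.22 ± 0.107, Spata22 with 0.639 ± 0.0537 and Meiob with 0.393 ± 0.239 CPM per kb. In 27 of the 34 pairs of neighbours in this order the mean ± SD ranges overlapped. In KO/KO Smc1b stood first with 75.5 ± 2.51 CPM per kb and Sycp1 second with 68.1 ± 9.86, which overlap, and Sycp3 with 22.1 ± 3.32 lay below Tex11 with 36.3 ± 1.60 and overlapped Sycp2 with 24.7 ± 1.31. The genes that rose were found along the whole range of levels, from Smc1b near the top to Prdm9 near the bottom. Of the 28 members with an average of at least 3 log2 CPM 7 rose and 1 fell, against 986 and 843 of the 9757 genes at or above that level.

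**Figure D4:**
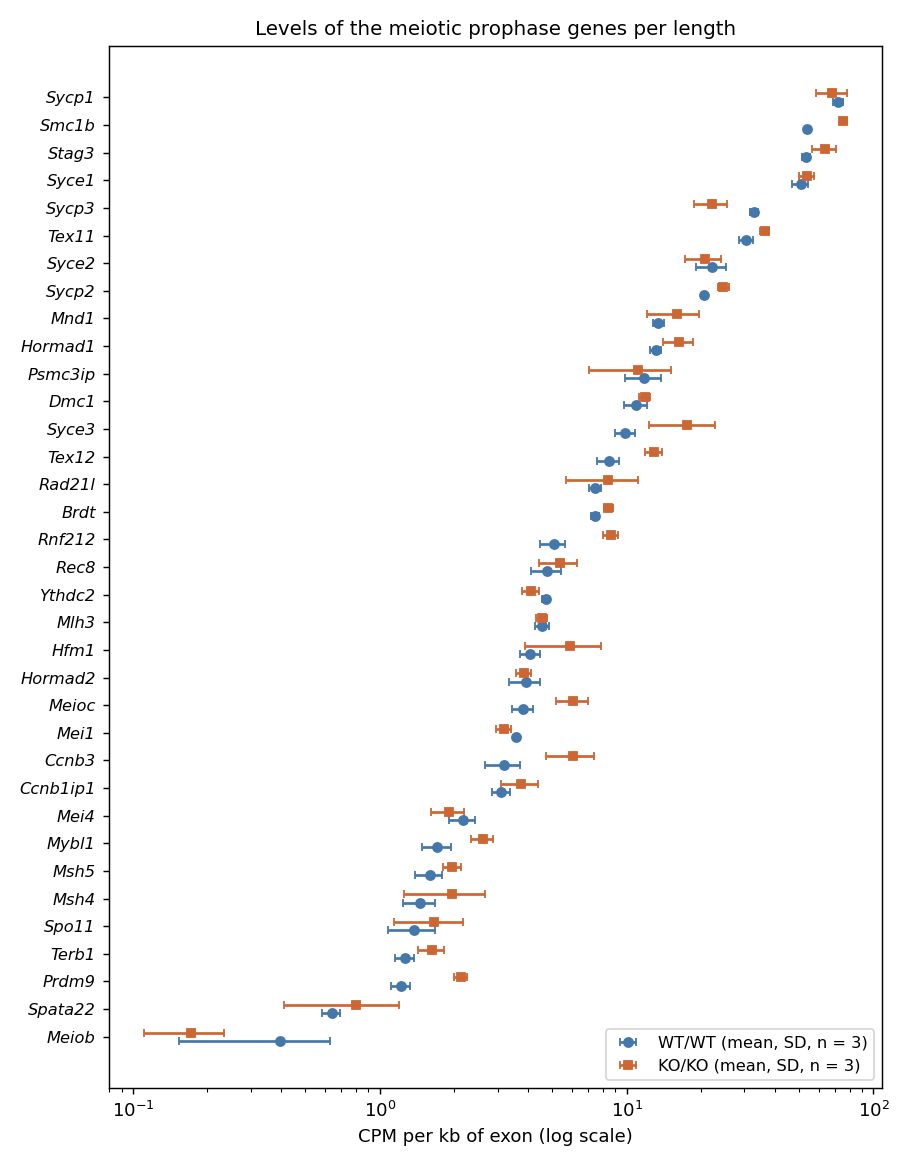
Level of each of the 35 genes in CPM per kb of exon on a log axis, as mean and SD of 3 libraries, WT/WT in blue circles and KO/KO in orange squares, in the order of the WT/WT means. Sycp1 heads the WT/WT order at 72.0 CPM per kb and Meiob closes it at 0.393 CPM per kb.

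The rest of the pathway was read from another list of 52 meiotic genes, listed by known role, of which 46 had a row and 44 were tested. Of these 6 rose and 3 fell, 13.6% and 6.82% of those tested, where 8.33% of all genes tested rose and 6.42% fell. The median log2 fold change of the list was 0.03, and the list was chosen with earlier results of these data known. Zcwpw1, whose product reads the histone marks set by PRDM9, rose from 110.4, 112 and 99.4 CPM in WT/WT to 146, 149 and 141 CPM in KO/KO, with no overlap (log2 fold change 0.44, SE 0.08, edgeR adjusted p = 0.00599). Zcwpw2, a relative that GENCODE M21 classes as a transcribed pseudogene, is on the same list and also rose (0.47, SE 0.13, edgeR adjusted p = 0.0383). It was named, beyond the 8 genes with the smallest p, after its values were seen, and its call was lost in 7 of 15 alternative fits, with adjusted p-values up to 0.140. Rad21 and Smc1a, which encode cohesin subunits of dividing cells, rose by log2 fold changes of 0.47 (SE 0.09, edgeR adjusted p = 0.00921) and 0.33 (SE 0.09, edgeR adjusted p = 0.0357). Rad21 read at 487, 500.4 and 513 CPM and 606, 769 and 696 CPM, above WT/WT in every KO/KO library, and kept its call in all 15 alternative fits. Smc1a read at 137, 134 and 141 CPM and 175, 153 and 189 CPM, and lost its call in 5 of the 15, without any 1 of the WT/WT libraries, KO/KO replicate 1 or KO/KO replicate 3, with adjusted p-values up to 0.157.

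Zfp541, which encodes a zinc finger protein of spermatocytes, rose from 16.1, 12.3 and 10.6 CPM to 19.8, 29.8 and 22.1 CPM (log2 fold change 0.88, SE 0.19, edgeR adjusted p = 0.0153), and Terf1, a telomere protein gene, rose from 55.5, 60.6 and 60.5 CPM to 72.2, 80.7 and 76.9 CPM (0.38, SE 0.09, edgeR adjusted p = 0.0174). Zfp541 lost its call without WT/WT replicate 2 or 3, and Terf1 lost it without any 1 of the WT/WT libraries, with adjusted p-values up to 0.0770 and 0.0889. Stra8, which encodes the retinoic acid induced regulator of meiotic entry, fell. It read at 105, 106 and 118 CPM in WT/WT, against 79.6, 28.5 and 38.8 CPM in KO/KO, lowest in replicates 2 and 3, a log2 fold change of -1.16 (SE 0.30, edgeR adjusted p = 0.0297). Rbm46, which encodes an RNA-binding protein needed for meiotic entry, read at 52.9, 54.2 and 63.5 CPM and 47.2, 33.1 and 32.9 CPM and had a log2 fold change of -0.59 (SE 0.15, edgeR adjusted p = 0.0265). Exo1, which encodes an exonuclease of recombination and mismatch repair, read at 74.1, 81.7 and 93 CPM and 66.9, 39.4 and 54.3 CPM and had -0.63 (SE 0.17, edgeR adjusted p = 0.0360). Leaving out any 1 of the WT/WT libraries or KO/KO replicate 3 ended the calls of all 3 genes that fell. That of Stra8 was also lost by DESeq2 (adjusted p = 0.0710), that of Exo1 with no scaling factors (adjusted p = 0.0583) and that of Rbm46 without KO/KO replicate 2 (adjusted p = 0.0568). In the fits without WT/WT replicate 1, 2 or 3 the genes of the list that rose numbered 3, 2 and 2. Over all genes tested 4.85%, 3.68% and 3.99% rose in these fits.

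**Figure D5:**
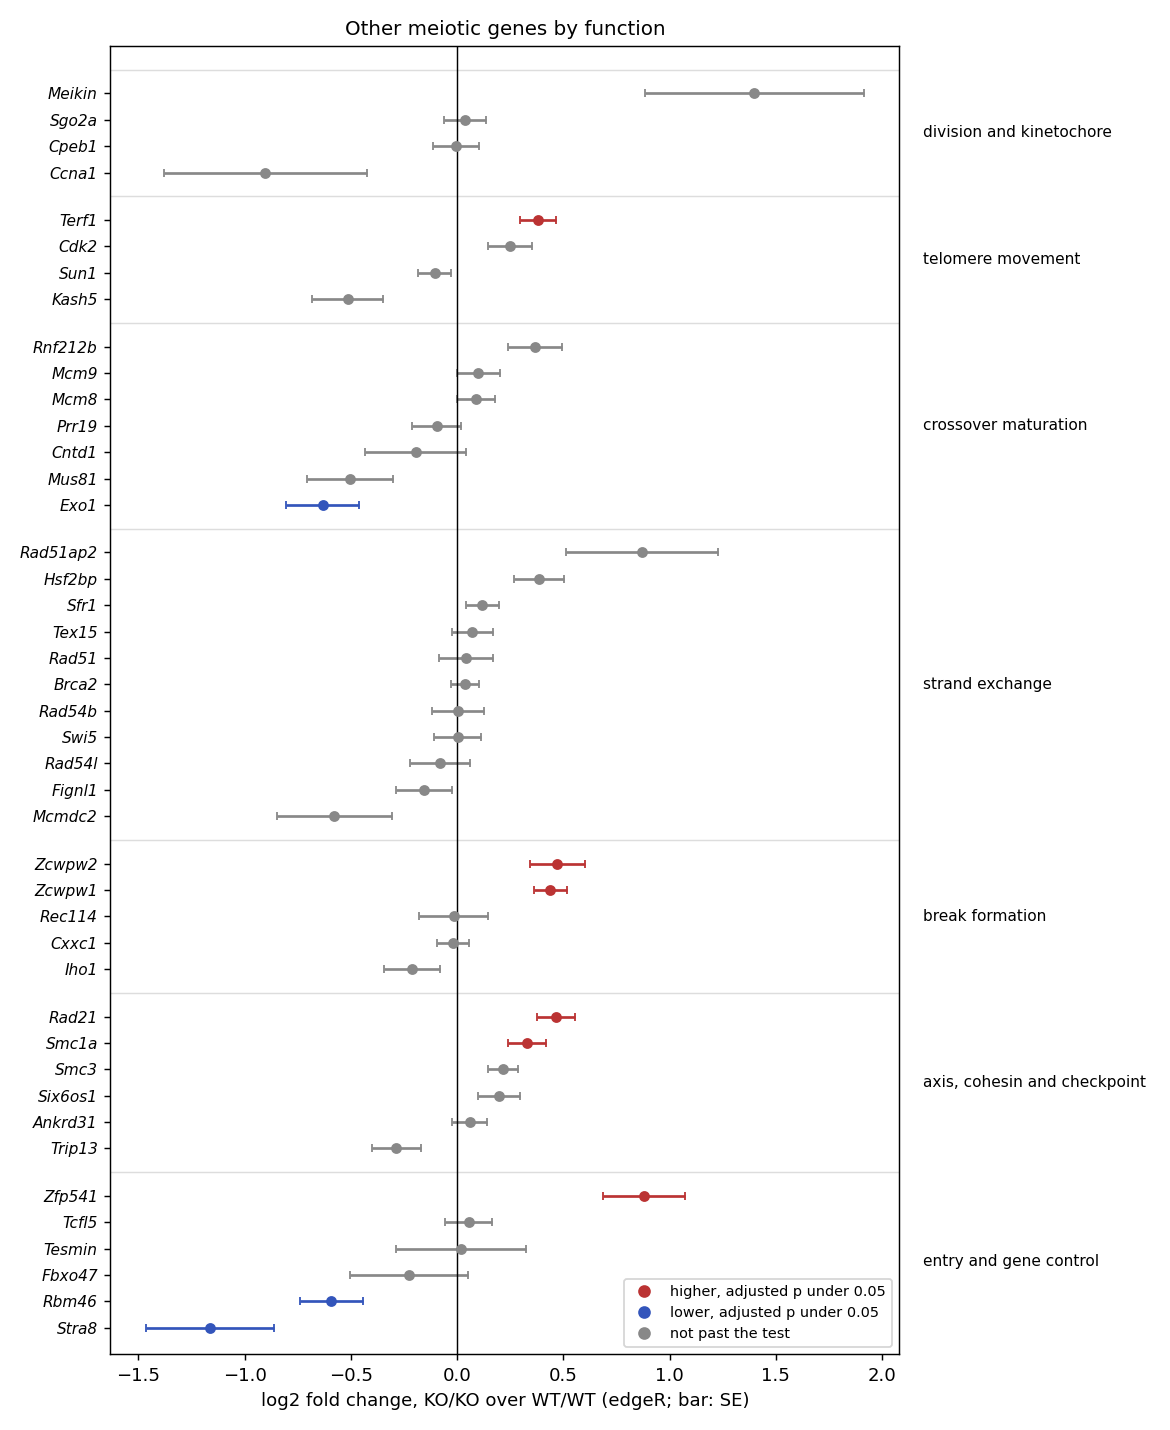
Log2 fold change of other meiotic genes tested, KO/KO over WT/WT, with its SE as the bar, grouped by function. The 6 that rose are in red, Stra8, Rbm46 and Exo1, which fell, in blue, and grey values did not pass the test.

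Some markers of the cells that the sort could hold moved between the genotypes as well. Counts of called markers are to be read against the 8.33% of all genes tested that rose and the 6.42% that fell. Of 8 general germ cell markers, such as Ddx4 and Dazl, 1 rose and none fell by edgeR (4 had an unadjusted p under 0.05, and 1 passed by DESeq2 and 2 by limma-voom), and the list summed to between 1374 and 1463 CPM in WT/WT and between 1312 and 1416 CPM in KO/KO. In bulk samples fewer cells of a type and less RNA per cell cannot be told apart. Of 10 stem spermatogonia markers 8 rose and 1 fell, and the list summed to between 520.0 and 578 CPM in WT/WT and between 812 and 1166 CPM in KO/KO. Id4 itself read at 36.96, 38.1 and 38.5 CPM and 86.8, 176 and 159 CPM. Of 9 differentiating spermatogonia markers 7 fell, while Rhox13 and Prss50 had log2 fold changes of 0.49 and 0.18 and did not pass the test. Stra8 is among the 7 and is also counted above among the other meiotic genes that fell. The differentiating markers summed to between 343 and 431 CPM in WT/WT and between 98.7 and 208 CPM in KO/KO, where KO/KO replicate 1 had the highest sum of the 3. The part of this shift in the levels of the meiotic genes was not tested.

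Markers of pachytene and later spermatocytes showed 1 called gene of 12 tested of 15, Clgn, a chaperone gene, with 25.5, 25.8 and 21.7 CPM in WT/WT, against 44.8, 51.4 and 50.1 CPM in KO/KO. This is 8.33% of the markers tested, the same share as the 8.33% of all genes tested that rose. The list summed to between 104 and 114 CPM in WT/WT and between 135 and 152 CPM in KO/KO, and without Clgn to between 82.6 and 88.7 CPM and between 84.4 and 101 CPM. The rest of the list was mixed. Tbpl1 with 25.2 ± 0.652 and 25.6 ± 1.20 CPM (SD, n = 3, WT/WT and KO/KO), Hspa2 with 20.8 ± 1.69 and 20.8 ± 1.46, Piwil1 with 20.6 ± 2.11 and 24.3 ± 4.54 and Zpbp with 9.57 ± 0.847 and 13.1 ± 2.67 were well detected and did not pass the test, while Adam2, Pgk2 and Spag6l were below 1 CPM in every library and not tested. Adam2 had 0, 5 and 0 counts in WT/WT and 0 in every KO/KO library, and Pgk2 had 9, 2 and 5 counts in WT/WT and 6, 8 and 60 in KO/KO, where 60 counts are 0.931 CPM.

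Somatic markers were read in the same way. None of 10 Sertoli cell markers passed the edgeR test (1 had an unadjusted p under 0.05, and 1 passed by DESeq2 and 0 by limma-voom), and their sum was between 542 and 808 CPM in WT/WT and between 583 and 859 CPM in KO/KO. No Leydig cell marker of 3 tested passed by edgeR, DESeq2 or an unadjusted p, and of 4 peritubular myoid markers none passed by edgeR, with 1 at an unadjusted p under 0.05 and 1 by DESeq2. Of 6 endothelial markers 4 rose, Cdh5, Flt1, Vwf and Kdr, and their sum went from between 33.7 and 40.1 CPM to between 119.55 and 159 CPM. Cdh5, the endothelial cadherin gene, read at 7.04, 7.25 and 5.32 CPM in WT/WT, against 38.7, 68.4 and 48.04 CPM in KO/KO, while the other two members of that list did not pass the test. Of 5 macrophage and leukocyte markers 2 were tested and Cd68, a lysosomal protein gene, rose from 1.21, 1.45 and 1.77 CPM to 3.93, 3.51 and 4.78 CPM (log2 fold change 1.47, SE 0.24, edgeR adjusted p = 0.00402). Ptprc did not pass the test, and the other 3, Adgre1, Csf1r and Lyz2, had at most 4 counts in any library. The sum of the list was between 1.32 and 2.21 CPM in WT/WT and between 3.83 and 4.80 CPM in KO/KO. The part of the endothelial, macrophage and spermatocyte markers in the values of the meiotic genes was not tested.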

How the data were processed

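Per the labels' protocols, the kits were Arcturus PicoPure for RNA, with DNase digestion, and SMARTer Stranded Total RNA-Seq for libraries. The authors deposited raw counts of reads for each gene and each repeat family. The submitters' processing notes name STAR 2.7.0a, featureCounts 1.5.1 and the build mm10. Which annotation release, strand setting and rule for reads with several positions were used is not stated in those notes, so overlapping genes may share reads.

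A table holds 55292 rows (54087 genes, 1205 repeat families), and the repeat families took between 14.1% and 15.5% of the counts and were left out of the fit. Gene counts of all 6 samples were fitted with edgeR 4.0.16 in R 4.3.3 (quasi-likelihood F test, TMM factors, filterByExpr, with no term beside genotype). Two-sided p-values were adjusted by Benjamini-Hochberg over 21314 genes, with a threshold of 0.05, and the SE of a log2 fold change is its size over the square root of F. The fit was tested on simulated data. Alternatives used DESeq2 1.42.0, limma 3.58.1, other factors and filters, a replicate block and each library left out. Positions and exon lengths are from GENCODE M21 (GRCm38, which is mm10) and promoters from RefSeq GRCm38.p6.

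The members and gene lists were chosen with earlier results of these data known. All members are accounted for. Values per sample are given for called members and for members that show the level of their group. Other meiotic genes named are the 8 with the smallest p past the test and Zcwpw2. From the marker lists at most 4 called genes are named, with Id4, Kit and Stra8, and others to show their level, chosen after their values were seen. The plot of other meiotic genes leaves out 1 tested gene, which is not reported here but is in the counts.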

Additional observations from a re-analysis of the deposited data

How the results depend on the processing

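Across 15 alternatives (other scaling factors, filters and tests, a replicate block, repeat families kept in the fit, and each of the 6 libraries left out), Smc1b, Prdm9 and Rnf212 held their calls in every one, and the other 7 called members each lost theirs at least once. Leaving out 1 library gave between 4 and 10 meiotic prophase genes higher and between 0 and 1 lower, between 2 and 5 other meiotic genes higher and between 0 and 4 lower, and between 814 and 1985 genes higher and between 560 and 1380 lower over all genes tested. The lowest counts of genes higher came without a WT/WT library. Dnmt3a stayed between -1.06 and -0.95 in these fits. Members with estimates near 0 or with a deviant library changed sign, none of them past the threshold in any fit. Without scaling factors Hormad2 read 0.0598, Sycp1 0.0068, Psmc3ip 7e-04 and Mlh3 0.0814, and with a filter of 1 CPM in 3 libraries Mlh3 read 0.007. Leaving out 1 library gave a log2 fold change between -0.15 and 0.0432 for Hormad2, between -0.19 and 0.004 for Sycp1, between -0.26 and 0.19 for Psmc3ip, between -0.0601 and 0.0332 for Mlh3, between -0.12 and 0.34 for Rad21l, between -0.21 and 0.0403 for Syce2, between -0.0084 and 0.44 for Spo11 and between -0.0152 and 0.69 for Spata22. The cause was not tested. Under the filter of 1 CPM Meiob and Spata22 were not tested, and few counts limit their precision. Deviations from the genotype means correlated at -0.09, 0.04 and 0.02 between same-numbered libraries. Between libraries of unlike number the correlations ran from -0.16 to 0.15. With 3 libraries per genotype these values cannot show whether the samples were paired. A fit with the replicate block gave 8 members higher and 1 lower, with Sycp2 losing its call (log2 fold change 0.26, edgeR adjusted p = 0.0908).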
